A study of Mus musculus with 20 samples.

Results

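The transcription factors described here are 10 genes that build, pattern or mark the parts of the nephron and collecting duct, namely Hnf4a, Pax2, Pax8, Sall1, Lhx1, Irx3, Gata3, Foxi1, Sox4 and Sox9. They were chosen by name, and all 10 were found among the 27827 gene names on the arrays. Whole kidney RNA of male C57BL/6 mice, 8 to 12 weeks old, was measured on one-colour Agilent arrays of the whole mouse genome, with 4 arrays in each of 5 groups. Control mice had no surgery and no drug. IRI mice had both renal pedicles clamped for 45 min and were killed after 6 h of reperfusion. IRI+Hemin mice had the same injury after 25 mg/kg of Hemin, which induces the heme-degrading enzyme heme oxygenase, injected intraperitoneally 24 h ahead of the operation. IPC+IRI mice had the same injury preceded, 7 days earlier, by 15 min of ischemia as a preconditioning stimulus. Hemin mice had the drug alone, and no group is labelled as sham-operated. The design asks what injury changes, what preconditioning or Hemin changes in the injured kidney, and what Hemin changes by itself.

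In the embryo the paired-box factors Pax2 and Pax8, with Lhx1, set up the nephric lineage, and Sall1 keeps nephron progenitors. Irx3 then marks the middle of the forming nephron, Hnf4a drives the proximal tubule, Gata3 the collecting duct and Foxi1 the acid-secreting intercalated cells. Sox9 and Sox4 belong to the HMG-box family, and Sox9 is known for its return in injured tubule cells that go on to repair. Most of these genes stay on at some level in the adult organ in a restricted set of cells.

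Values are log2 expression, the log2 of a gene's mean processed signal over the 75th percentile of its array, so that 0 lies at that percentile and levels are compared between groups, never between genes. Differences were tested with limma on all 20 arrays, and a difference of any size was called where its adjusted p fell below 0.05. The 5 groups sat on 5 separate slides, and the effect of a slide and that of its group cannot be told apart. Control and IRI were scanned on 1 day, IPC+IRI and Hemin on another, and IRI+Hemin on a day of its own. The RNA comes from whole kidneys, in which fewer cells of a type and less RNA per cell cannot be told apart. The 75th percentile ran from 147 to 358 intensity units over the arrays, and from 57.4% to 67.4% of gene names were well above background, a mark set by the scanner software. The tissue label was borne out by its markers, since all 11 proximal tubule genes found on the arrays and all 6 loop and distal tubule genes were well above background on every array. The known injury genes moved with the label as well, with 8 of 9 higher in IRI than in Control and none lower, among them the iron-binding protein Lcn2 by 5.06 ± 0.43 (SE, adjusted p = 8.15e-08) and the keratin Krt18 by 2.23 ± 0.26 (SE, adjusted p = 2.07e-06). Nothing in the labels says that the 4 arrays of a group came from separate animals, and p-values measure the spread between these samples only.

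Sox9 made the largest change of the 10 factors in IRI vs Control. Its log2 expression in the Control arrays was -4.65, -4.45, -5.13 and -4.97, and in the IRI arrays -0.15, 0.65, 1.01 and 0.31. Every IRI array lay far above every Control array, and the means were -4.80 ± 0.31 (SD, n = 4) in Control and 0.46 ± 0.49 in IRI. The log2 difference was 5.26 ± 0.34 (SE, adjusted p = 4.01e-09), a 38.2-fold rise as fitted, from a Control level near background that leaves the exact fold uncertain. Sox9 was high in the other injured groups too. IRI+Hemin arrays read 1.14, 0.53, 1.12 and -0.19, and IPC+IRI arrays read -0.54, -0.076, 0.87 and -0.88. All 3 injured groups overlapped with each other, and neither difference tested between them was called. IPC+IRI minus IRI was -0.61 (95% interval -1.34 to 0.11, adjusted p = 0.154), and IRI+Hemin minus IRI was 0.19 (95% interval -0.53 to 0.91, adjusted p = 0.678), and both intervals hold 0. Without IPC+IRI replicate 3, the highest array of its group, IPC+IRI minus IRI was -0.96 (adjusted p = 0.0226). In Hemin mice the gene was low, at -4.47, -4.45, -4.88 and -4.85, which overlapped with Control. Against Hemin mice the difference was 5.32 ± 0.34 (SE, adjusted p = 7.03e-09) in IRI+Hemin and 4.51 ± 0.34 (SE, adjusted p = 5.84e-08) in IPC+IRI. The interaction of Hemin and IRI was 0.059 (95% interval -0.97 to 1.09, adjusted p = 0.964), and IPC+IRI minus Control was 4.64 ± 0.34 (SE, adjusted p = 2.15e-08), a 25-fold rise as fitted from the same Control level.

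**Figure D1:**
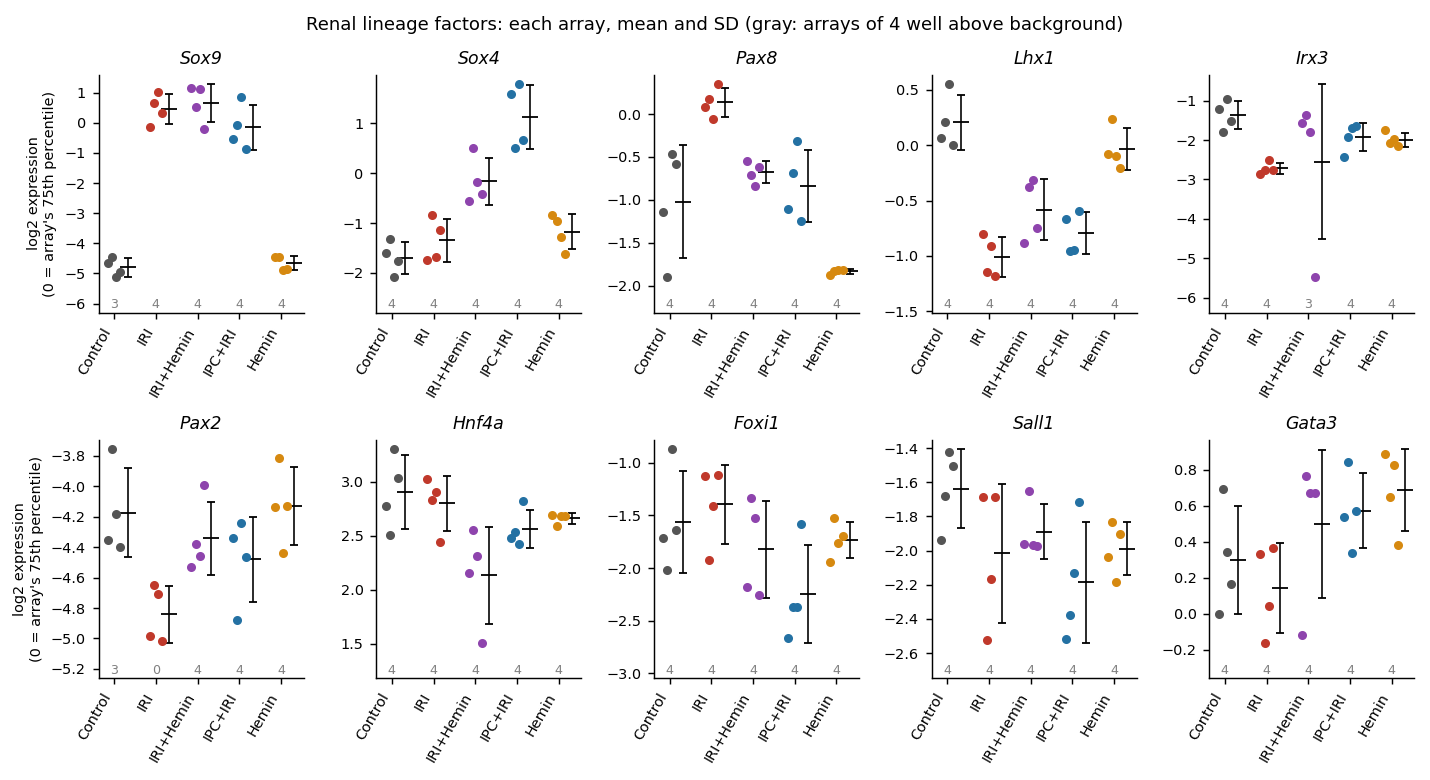
Log2 expression of the 10 factors (vertical axis, 0 at the array's 75th percentile) in the 5 groups, with 1 point per array, the mean and SD to the right of the points, and in gray the number of the 4 arrays well above background. Sox9 is low in Control and Hemin and high in all injured groups, while Sox4 is highest in IPC+IRI, and Irx3 has a single IRI+Hemin array at -5.49.

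The baseline of Sox9 rests close to the detection limit, and its 3 probes did not all respond. The probe at chr11:112647008-112647067 (mm9, the build in the file headers) was well above background on 2 of 4 Control arrays and went from -4.55 ± 0.19 there to 1.52 ± 0.51 in IRI. The probe at chr11:112648809-112648868, spotted 10 times on each array, was well above background on 0 of 4 Control arrays and on all 4 IRI arrays, so its rise is given as a bound of at least 30.8-fold, measured from the lowest signal well above background on each Control array. The remaining probe, which the annotation places across chr11:112644310-112645162, was well above background on 1 Control and 2 IRI arrays and moved only from -4.66 ± 0.52 to -4.18 ± 0.38. It was too dim to be tested in IRI vs Control and gave no call in the 6 comparisons where it was tested, among them IPC+IRI minus Control at 0.12 ± 0.35 (SE, adjusted p = 0.787), IRI+Hemin minus Hemin at 0.78 ± 0.35 (SE, adjusted p = 0.0768) and IPC+IRI minus Hemin at 0.061 ± 0.35 (SE, adjusted p = 0.91). The rise of the gene is thus carried by the other probes. No annotation of the mm9 build was used here, so exons and introns under the probes are not named.

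**Figure D2:**
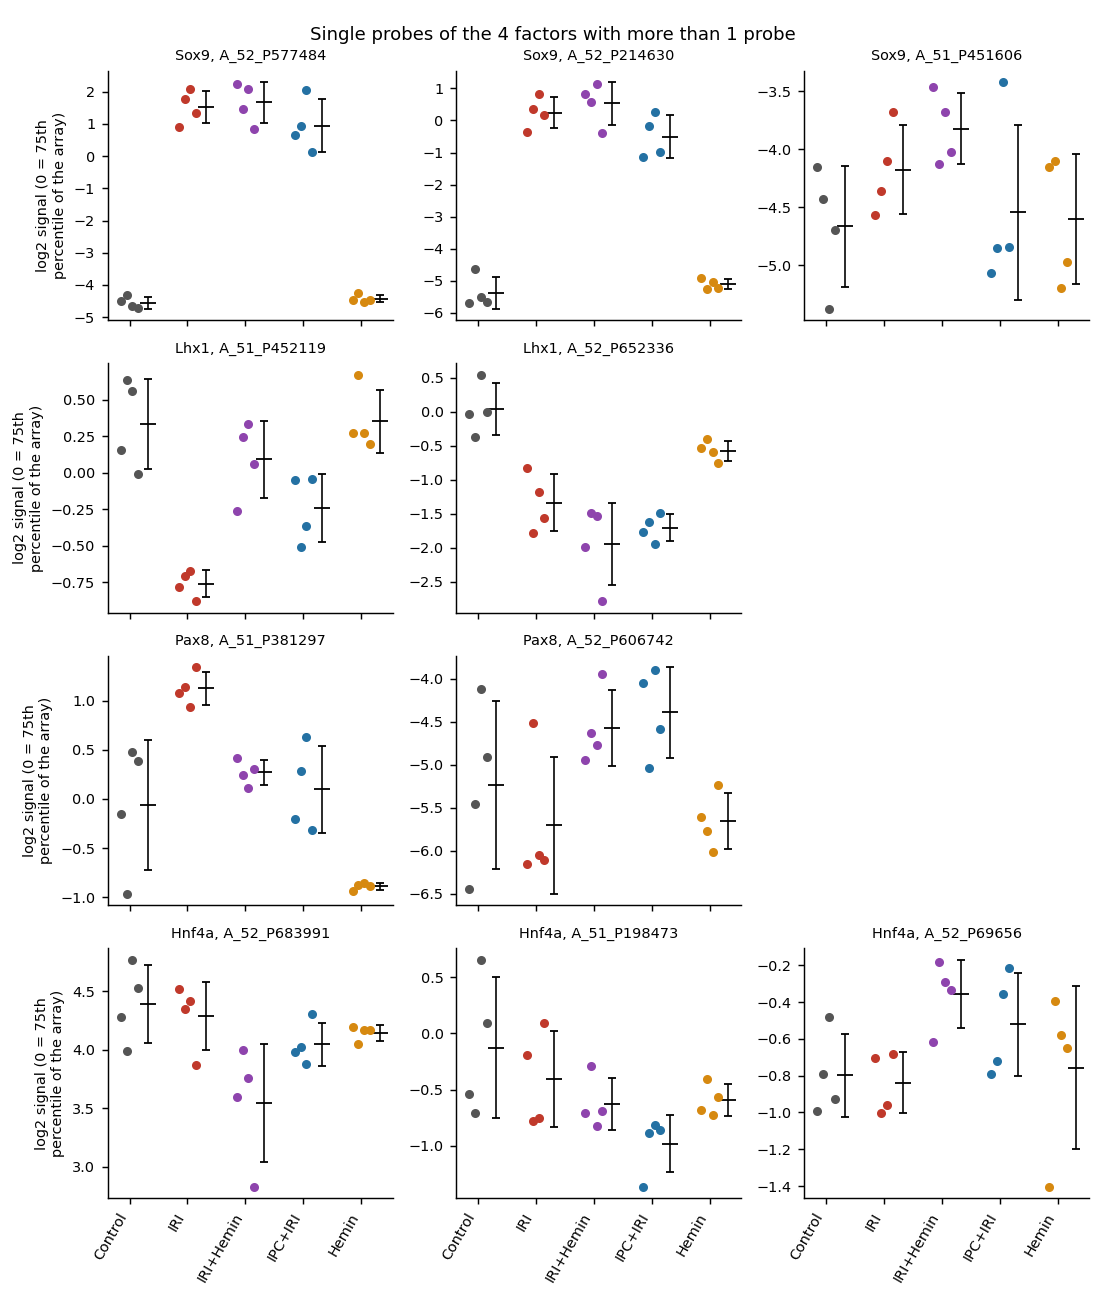
Log2 signal of each probe (vertical axis, 0 at the array's 75th percentile) for the 4 factors with more than 1 probe, in the 5 groups, with 1 point per array and the mean and SD beside them. The first 2 Sox9 probes rise in every injured group and the third does not, and the 2 Lhx1 probes part in IRI+Hemin.

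The sequences upstream of Sox4, Pax8 and Lhx1 are shown because these 3 factors were called in 5 or more of the 8 comparisons, as described next. Entries were found for 9 of the 10 factors in the RefSeq table of the GRCm38.p6 build, which is not the build of the probe positions. Each line gives the 250 bases before the start, 5′ to 3′ on the strand of the gene, for Sox4 (chr13:28953700-28953949, minus strand), Pax8 (chr2:24475600-24475849, minus strand) and Lhx1 (chr11:84525535-84525784, minus strand), which have a single start each. Capitals mark a match to the motifs searched on both strands, the CCAAT box (CCAAT) and the GC box (GGGCGG).
Sox4: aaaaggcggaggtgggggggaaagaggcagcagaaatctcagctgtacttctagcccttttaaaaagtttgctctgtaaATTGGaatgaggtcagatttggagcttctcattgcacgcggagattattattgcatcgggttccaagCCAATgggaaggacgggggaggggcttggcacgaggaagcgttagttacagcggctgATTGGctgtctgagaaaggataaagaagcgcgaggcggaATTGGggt
Pax8: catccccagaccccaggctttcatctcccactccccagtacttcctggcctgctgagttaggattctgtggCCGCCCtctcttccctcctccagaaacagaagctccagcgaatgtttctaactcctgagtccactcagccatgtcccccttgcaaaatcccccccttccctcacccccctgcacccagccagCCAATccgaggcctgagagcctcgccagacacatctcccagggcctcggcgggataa
Lhx1: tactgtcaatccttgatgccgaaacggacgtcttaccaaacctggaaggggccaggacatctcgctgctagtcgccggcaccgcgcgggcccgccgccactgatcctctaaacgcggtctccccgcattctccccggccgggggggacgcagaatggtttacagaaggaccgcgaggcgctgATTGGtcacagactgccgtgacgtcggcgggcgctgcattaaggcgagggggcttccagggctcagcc
The Sox4 sequence holds 4 CCAAT boxes, a number that 0.84% of the 32851 promoters reach, while 33.9% hold at least 1. Pax8 and Lhx1 hold 1 each. A GC box, found in 32.7% of all promoters, was present for Pax8 and in neither of the others. A TATA box (TATAAA, in 12.4% of promoters), an AP-1 site (TGANTCA, in 6.75%) and the core of the antioxidant response element (TGACNNNGC, in 10.2%) were also searched, and none of these letters occur in the 3 windows. A match is a string of letters and not evidence of binding.

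Sox4, a SoxC factor active in many progenitor and repairing tissues, followed another course. Control arrays read -1.60, -1.32, -2.09 and -1.76, and IRI arrays read -1.74, -0.84, -1.69 and -1.13. These groups overlapped, and their difference of 0.34 ± 0.30 (SE, adjusted p = 0.361) was not called. IPC+IRI arrays read 1.58, 0.51, 1.78 and 0.66, all 4 above every array of the other groups. The difference from IRI was 2.48 ± 0.30 (SE, adjusted p = 1.21e-05), a 5.59-fold rise, and from Control it was 2.83 ± 0.30 (SE, adjusted p = 1.05e-06). IRI+Hemin arrays came between, at -0.55, 0.50, -0.18 and -0.42, and did not overlap with IRI. The highest of them, at 0.504, lay only just below the lowest IPC+IRI array, at 0.512, and these groups were not compared. Against IRI the IRI+Hemin arrays were higher by 1.19 ± 0.30 (SE, adjusted p = 0.00424), and against Hemin by 1.01 ± 0.30 (SE, adjusted p = 0.0122). Without IRI+Hemin replicate 2, the highest of its group, the latter was 0.79 (adjusted p = 0.0509). Hemin arrays, at -0.84, -0.95, -1.29 and -1.62, overlapped with Control. IPC+IRI and Hemin arrays were scanned on the same day, and there the difference was 2.31 ± 0.30 (SE, adjusted p = 2.07e-05). The single Sox4 probe lies at chr13:29044066-29044125 and was well above background on all 20 arrays.

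Of the paired-box genes, Pax8 rose with injury, while Pax2 lay near background. Pax8 read -1.14, -1.90, -0.46 and -0.58 in Control and 0.085, 0.17, -0.055 and 0.35 in IRI. The IRI arrays were tight and all above the scattered Control arrays, and the difference of 1.16 ± 0.24 (SE, adjusted p = 7.01e-04) was a 2.23-fold rise. In IPC+IRI the gene read -1.10, -0.69, -0.31 and -1.25, and in IRI+Hemin -0.55, -0.71, -0.84 and -0.62. Both pretreated injured groups lay wholly below IRI, with log2 differences of -0.97 ± 0.24 (SE, adjusted p = 0.00365) with preconditioning and -0.82 ± 0.24 (SE, adjusted p = 0.0113) with Hemin. IPC+IRI minus Control was 0.18 (95% interval -0.33 to 0.69, adjusted p = 0.542). Hemin arrays read -1.88, -1.83, -1.81 and -1.81, and the group was called lower than Control at -0.81 ± 0.24 (SE, adjusted p = 0.0151). Here the groups overlapped, because Control replicate 2 lay just below the lowest Hemin array. Without Control replicate 3 or 4 the Hemin difference missed the threshold, at -0.63 (adjusted p = 0.0639) and -0.67 (adjusted p = 0.059). It was called in 11 of 13 processing settings, and without scaling between arrays it was -0.25 (adjusted p = 0.558).

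Pax8 was higher after injury with Hemin as it was without. IRI+Hemin minus Hemin was 1.16 ± 0.24 (SE, adjusted p = 0.00106), beside 1.16 ± 0.24 (SE, adjusted p = 7.01e-04) for IRI minus Control, and the interaction of Hemin and IRI was -0.0027 (95% interval -0.73 to 0.72, adjusted p = 0.997). IPC+IRI minus Hemin was 0.997 ± 0.24 (SE, adjusted p = 0.00406). These values rest on the brighter probe, at chr2:24276785-24276844. A dim probe at chr2:24328201-24328260 carries the same gene name and was well above background on 0 IRI arrays, 0 Hemin arrays and 1 Control array. With the IRI arrays held at no less than their lowest signal well above background, it was 1.23-fold higher in IPC+IRI than in IRI. In IRI+Hemin it was 1.09-fold higher on the same terms. Neither is a firm minimum, since IRI replicate 2, not well above background, read -4.51, inside the range of both groups. These values carry no test of their own, since the fit uses IRI values not well above background. Where log2 values of the probes were averaged instead of their signals, IRI minus Control was 0.36 (adjusted p = 0.309), and the comparisons of IPC+IRI and IRI+Hemin with IRI stood at 0.14 (adjusted p = 0.708) and 0.14 (adjusted p = 0.716).

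Pax2 was near the limit of detection throughout. Its single probe, spotted 10 times at chr19:44835375-44835433, was well above background on 3 of 4 Control arrays, on 0 of 4 IRI arrays and on all 12 arrays of the other groups. Control arrays read -4.35, -3.76, -4.18 and -4.40 and IRI arrays -4.99, -4.65, -4.71 and -5.02, without overlap. With the IRI arrays held at no less than their lowest signal well above background, IRI was 1.41-fold lower, which is no firm minimum. The fit to the measured signals called the difference (adjusted p = 0.00423). IRI+Hemin arrays, at -4.53, -4.38, -4.46 and -3.99, all exceeded the IRI arrays, by 1.25-fold on the same terms (adjusted p = 0.0284). Both calls rest on IRI values not well above background, so the direction of neither is firm. IPC+IRI arrays read -4.34, -4.88, -4.24 and -4.46 and Hemin arrays -4.14, -3.81, -4.44 and -4.13, and no difference of either group was called. With normexp background correction, which lifts dim signals by an offset of 50, both differences turned sign and lost their calls, at 0.15 (adjusted p = 0.771) and -0.46 (adjusted p = 0.118). With quantile normalization they were -0.12 (adjusted p = 0.574) and 0.37 (adjusted p = 0.0724), and the latter also lost its call without IRI replicate 1 or 4 or IRI+Hemin replicate 4.

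Lhx1, a LIM homeobox gene of the early nephron, was lower in IRI and IPC+IRI than in Control and lower in IRI+Hemin than in Hemin. Control arrays read 0.064, 0.21, 0.55 and -0.0023, IRI arrays -0.81, -1.15, -0.91 and -1.18 and IPC+IRI arrays -0.67, -0.96, -0.95 and -0.59. Both injured groups lay wholly below Control, with log2 differences of -1.22 ± 0.16 (SE, adjusted p = 6.34e-06) in IRI and -0.999 ± 0.16 (SE, adjusted p = 4.32e-05) in IPC+IRI. Hemin arrays, at -0.079, 0.23, -0.095 and -0.21, overlapped with Control, and IRI+Hemin arrays, at -0.88, -0.38, -0.32 and -0.75, lay wholly below them. The IRI+Hemin minus Hemin difference was -0.55 ± 0.16 (SE, adjusted p = 0.00924), and IPC+IRI minus Hemin was -0.76 ± 0.16 (SE, adjusted p = 0.00122). Where the brightest probe alone stood for the gene, the former was -0.26 (adjusted p = 0.215). IRI+Hemin overlapped with IRI and was called higher by 0.43 ± 0.16 (SE, adjusted p = 0.033). The call was lost in 4 of 13 processing settings, among them the fit of these 8 arrays alone, at 0.43 (adjusted p = 0.0676), with the smallest difference at 0.12 (adjusted p = 0.598) for the mean of log2 values over probes, and without IRI replicate 2 or 4 or IRI+Hemin replicate 2 or 3.

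Both Lhx1 probes fell in IRI, and they differed in sign between IRI+Hemin and IRI. The probe at chr11:84333091-84333150, spotted 10 times, read -0.78, -0.71, -0.68 and -0.88 in IRI and -0.27, 0.24, 0.33 and 0.061 in IRI+Hemin. On it the IRI+Hemin arrays were all above the IRI arrays, by 0.85 ± 0.17 (SE, adjusted p = 4.99e-04), and the interaction of Hemin and IRI was 0.83 ± 0.24 (SE, adjusted p = 0.0359). The probe at chr11:84331888-84331947 read -0.83, -1.78, -1.19 and -1.57 in IRI and -1.99, -1.49, -1.53 and -2.79 in IRI+Hemin. Here the groups overlapped and the difference of -0.61 ± 0.26 (SE, adjusted p = 0.0616) was not called, with an interaction of 0.002 (95% interval -0.77 to 0.77, adjusted p = 0.998). Against Control, the log2 differences of IRI on these probes were -1.09 ± 0.17 (SE, adjusted p = 3.60e-05) and -1.38 ± 0.26 (SE, adjusted p = 2.71e-04) in that order. For the gene as a whole the interaction was 0.67 (95% interval 0.21 to 1.14, adjusted p = 0.072) and was not called.

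Irx3, an Iroquois gene of the middle nephron, gave no call in any comparison, and a single array decided that. Control arrays read -1.21, -1.79, -0.95 and -1.51 and IRI arrays -2.85, -2.75, -2.51 and -2.76, without overlap. The difference was -1.36 ± 0.59 (SE, adjusted p = 0.0645), and the exact permutation test of these 8 arrays gave p = 0.0286, the smallest it can give. IRI+Hemin arrays read -1.56, -1.36, -1.79 and -5.49. Replicate 4 lay 3.70 log2 units below the lowest of the other 3 and was the only array of the 20 on which the gene was not well above background. It entered every comparison through the shared estimate of the spread. Of 17378 genes well above background on the other 3 arrays, 2 lay as far or further below them on replicate 4. That array had the lowest 75th percentile of its group, 174 against 251 to 358 intensity units, and 60.1% of gene names well above background against 64.7% to 66.5%. The part of these array measures in the Irx3 value was not tested.

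Without that array, chosen to be left out after the values were seen, Irx3 was called in 6 of 8 comparisons. IRI minus Control was -1.36 ± 0.18 (SE, adjusted p = 1.42e-05), and the size of the difference did not move. In the fit of the 8 Control and IRI arrays alone, scanned on the same day, it was -1.36 (adjusted p = 3.71e-04). IPC+IRI minus IRI was 0.80 ± 0.18 (SE, adjusted p = 0.0023), and the groups did not overlap. The 3 other IRI+Hemin arrays averaged -1.57 ± 0.21 (SD, n = 3) and exceeded IRI by 1.15 ± 0.20 (SE, adjusted p = 3.33e-04). In this fit both pretreated injured groups lay above IRI. IPC+IRI and Hemin were lower than Control, at -0.56 ± 0.19 (SE, adjusted p = 0.0157) and -0.63 ± 0.19 (SE, adjusted p = 0.014). The interaction of Hemin and IRI was 1.78 ± 0.27 (SE, adjusted p = 0.00114), against 0.80 ± 0.84 (SE, adjusted p = 0.633) with all 20 arrays. IRI+Hemin minus Hemin turned from -0.56 ± 0.60 (SE, adjusted p = 0.464) to 0.42 ± 0.20 (SE, adjusted p = 0.0983) and was called in neither fit.

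**Figure D3:**
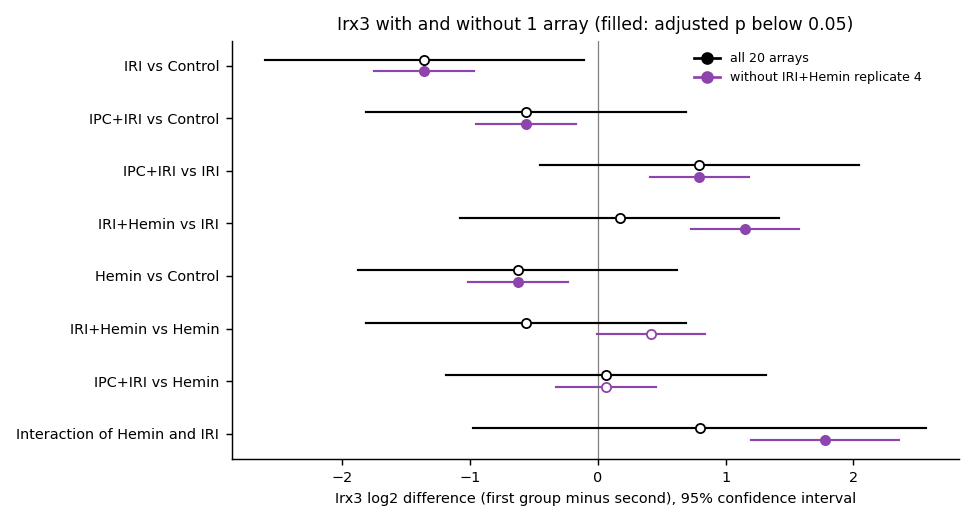
Log2 difference of Irx3 in the 8 comparisons (horizontal axis, first group minus second, with the 95% interval), fitted with all 20 arrays and without IRI+Hemin replicate 4, where a filled point marks an adjusted p below 0.05. Differences that do not use IRI+Hemin keep their place while their intervals narrow, and 6 of 8 points fill.

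Hnf4a, the nuclear receptor that directs proximal tubule genes, was not called in IRI vs Control and was lower in IRI+Hemin. Control arrays read 2.78, 2.51, 3.30 and 3.03 and IRI arrays 3.02, 2.83, 2.90 and 2.44, with a difference of -0.10 (95% interval -0.52 to 0.31, adjusted p = 0.683). IRI+Hemin arrays read 2.15, 2.55, 2.32 and 1.51, and only 1 of them overlapped with IRI. They were lower than IRI, at a log2 difference of -0.67 ± 0.20 (SE, adjusted p = 0.0105) and lower than Hemin, which read 2.69, 2.59, 2.68 and 2.68, at a difference of -0.53 ± 0.20 (SE, adjusted p = 0.0375). The latter was called in 6 of 13 processing settings, and with the mean of log2 values over probes it was -0.078 (adjusted p = 0.734). That call was also lost without IRI+Hemin replicate 4, the array that stood apart for Irx3, at -0.32 (adjusted p = 0.14), while IRI+Hemin minus IRI was then -0.46 (adjusted p = 0.0406). IRI+Hemin minus IRI was called in 9 of 13 processing settings, and with the mean of log2 values over probes it was -0.16 (adjusted p = 0.464). IPC+IRI arrays, at 2.48, 2.53, 2.42 and 2.82, overlapped with Control and IRI. The gene level rests on the brightest of 3 probes, at chr2:163398074-163398133, on which IRI+Hemin minus IRI was -0.74 ± 0.21 (SE, adjusted p = 0.00823). The probe at chr2:163378302-163378361 went the other way, at 0.48 ± 0.19 (SE, adjusted p = 0.0483). The probe at chr2:163396065-163396124 was lower in IPC+IRI than in Control, at -0.86 ± 0.25 (SE, adjusted p = 0.0078). Of the proximal tubule genes, which Hnf4a is known to drive, 2 of 11 were higher and 4 lower in IRI+Hemin vs IRI, beside 26.3% and 18.1% of all genes. In IRI vs Control 4 of 11 were lower and none higher, near the 33.9% of all genes called lower, led by Slc5a12, a lactate carrier, at -1.67 ± 0.22 (SE, adjusted p = 9.63e-06), Lrp2 (megalin) at -0.95 ± 0.099 (SE, adjusted p = 7.38e-07) and Slc2a2, a glucose carrier, at -0.63 ± 0.19 (SE, adjusted p = 0.011).

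In IPC+IRI mice Foxi1 was lower than in Control and in IRI, and Sall1 was lower than in Control. Foxi1 read -1.72, -2.01, -0.88 and -1.64 in Control, -1.13, -1.93, -1.41 and -1.12 in IRI and -2.66, -2.37, -2.37 and -1.58 in IPC+IRI. Of the IPC+IRI arrays 3 lay below all Control and IRI arrays and replicate 4 overlapped with both groups. The difference from IRI was -0.85 ± 0.27 (SE, adjusted p = 0.0173) and from Control -0.68 ± 0.27 (SE, adjusted p = 0.0409). Both calls were lost on leaving out single arrays, with adjusted p up to 0.058 and 0.164. Over 13 processing settings the difference from Control was called in 7, and without scaling between arrays it was -0.24 (adjusted p = 0.622). IRI+Hemin arrays, at -2.18, -1.33, -1.53 and -2.25, and Hemin arrays, at -1.94, -1.53, -1.76 and -1.70, gave no call. The genes of intercalated cells, where Foxi1 acts, had 6 higher and 1 lower (the aquaporin Aqp6) of 8 in IPC+IRI vs IRI, the comparison in which Foxi1 was lower, beside 26.3% and 17.9% of all genes. In IRI vs Control 4 of 8 were lower and none higher, beside 33.9% of all genes lower, led by the ammonia channel Rhcg at -0.94 ± 0.27 (SE, adjusted p = 0.00691) and the anion exchanger Slc4a1 at -0.85 ± 0.34 (SE, adjusted p = 0.0409), and the summed level of all 8 ran from 5.67 to 5.97 in Control, 5.02 to 5.59 in IRI and 5.52 to 6.09 in IPC+IRI (log2 scale).

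Sall1 read -1.94, -1.68, -1.42 and -1.503 in Control and -2.52, -2.38, -2.13 and -1.71 in IPC+IRI, with 1 array of each group in the other's range. The difference was -0.55 ± 0.19 (SE, adjusted p = 0.0216), and it lost its call without Control replicate 3 or 4 or IPC+IRI replicate 1 or 2, with adjusted p up to 0.0744. It was called in 10 of 13 processing settings, and without scaling between arrays it was -0.11 (adjusted p = 0.783). IRI, at -1.68, -2.53, -2.17 and -1.69, IRI+Hemin, at -1.96, -1.65, -1.97 and -1.98, and Hemin, at -2.04, -1.83, -2.18 and -1.90, overlapped with Control. IRI minus Control was -0.38 (95% interval -0.78 to 0.024, adjusted p = 0.109). Sall1 in IPC+IRI was called against neither IRI nor Hemin.

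Gata3, a zinc finger factor of the collecting duct, was called in no comparison. It read -0.0026, 0.69, 0.34 and 0.17 in Control, 0.33, -0.16, 0.046 and 0.37 in IRI, -0.12, 0.77, 0.67 and 0.67 in IRI+Hemin, 0.54, 0.85, 0.34 and 0.57 in IPC+IRI and 0.89, 0.65, 0.83 and 0.38 in Hemin. The groups overlapped throughout, apart from Hemin, whose arrays all lay above those of IRI, a pair not compared here. IPC+IRI minus IRI was 0.43 (95% interval 0.015 to 0.84, adjusted p = 0.0855), and IRI+Hemin minus IRI was 0.35 (95% interval -0.062 to 0.77, adjusted p = 0.156). Without IRI+Hemin replicate 1, the low array of that group, the latter was 0.56 (adjusted p = 0.0176). Of 6 principal cell genes of the same duct, 1 was higher and 2 lower in IRI vs Control, beside 17.1% and 33.9% of all genes. The water channel Aqp2 was higher by 1.23 ± 0.30 (SE, adjusted p = 0.00252), the vasopressin receptor Avpr2 was lower at -1.68 ± 0.28 (SE, adjusted p = 7.66e-05), and Hsd11b2, which inactivates glucocorticoids, was lower at -0.71 ± 0.26 (SE, adjusted p = 0.0308). Urothelial genes, whose cells also express Gata3, varied from array to array, with a summed level of -0.87 to 2.06 in Control, -1.38 to 2.41 in IRI and -1.71 to 1.78 in IPC+IRI (log2 scale), and their part in the Gata3 values was not tested.

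The 10 factors were counted in each comparison beside the genes at large, and no test set them apart. In IRI vs Control 2 factors were higher (Sox9 and Pax8) and 2 lower (Lhx1, and Pax2 with a direction that is not firm). Of 17711 genes tested there, 17.1% were higher and 33.9% lower. In IPC+IRI vs Control 2 were higher (Sox9 and Sox4) and 3 lower (Lhx1, Foxi1 and Sall1), against 23.3% and 32.7% of all genes. In IPC+IRI vs IRI 1 was higher (Sox4) and 2 lower (Pax8 and Foxi1), against 26.3% and 17.9%. In IRI+Hemin vs IRI 3 were higher (Sox4, Lhx1 and, again without a firm direction, Pax2) and 2 lower (Pax8 and Hnf4a), against 26.3% and 18.1%. These shares are near the background, so the number of factors called is no result about the group, and the single genes carry the description. In Hemin vs Control 0 were higher and 1 (Pax8) was lower, against 18.5% and 17.6%. In IRI+Hemin vs Hemin 3 were higher (Sox9, Pax8 and Sox4) and 2 lower (Lhx1 and Hnf4a), against 16.5% and 27.9%, and in IPC+IRI vs Hemin the same 3 were higher and 1 (Lhx1) lower, against 13.2% and 22.8%. The interaction of Hemin and IRI called 0 of the 10 by limma, where 5.83% of genes were called with a positive and 1.96% with a negative value, and 1 of the 10 (Lhx1) had an unadjusted p under 0.05. The median log2 difference of the 10 factors was -0.13 in IRI vs Control, beside -0.17 over all genes tested, -0.32 beside -0.086 in IPC+IRI vs Control, 0.025 beside 0.093 in IPC+IRI vs IRI, 0.18 beside 0.082 in IRI+Hemin vs IRI, and -0.21 beside 0.057 in Hemin vs Control. The filter on dim genes, which 1 of the groups compared suffices to pass, let through all 10 in every comparison. In the comparisons of IRI with another group, Pax2 passed it only through that other group. A call with Pax2 higher in IRI was therefore unlikely from the start. The comparisons with Control share its 4 arrays and those with IRI share theirs, so they are not independent of each other.

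**Figure D4:**
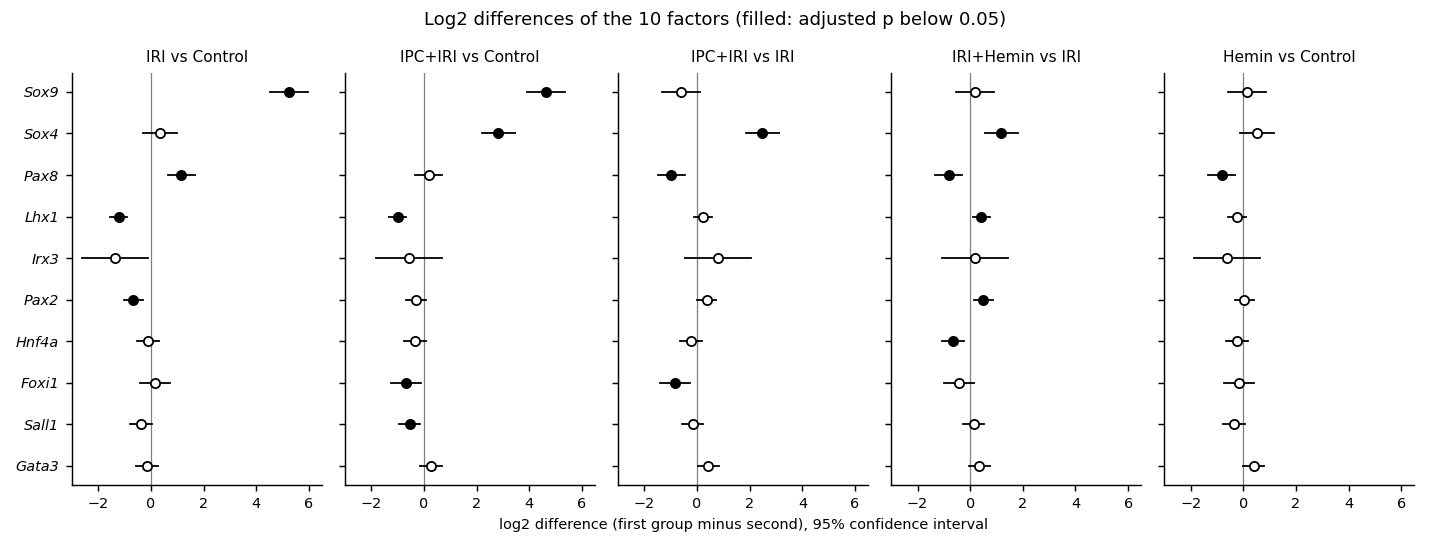
Log2 difference of the 10 factors (horizontal axis, first group minus second) with the 95% interval in the 5 comparisons of the study design, where a filled point marks an adjusted p below 0.05. Sox9 stands apart in both comparisons of injury with Control, and Sox4 in both comparisons that hold IPC+IRI.

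Among other transcription factors of the kidney lineage, a list of 36 genes of which 34 were on the arrays, 30 were tested in IRI vs Control, of which 3 were higher and 15 lower, beside 17.1% and 33.9% of all genes, with a median log2 difference of -0.76 against -0.17 over all genes tested. Decreases also outnumbered increases among all genes, and no test set the list apart from them. The largest falls were those of Sim1, a bHLH-PAS factor of the nephron, at -2.36 ± 0.28 (SE, adjusted p = 3.23e-06), and of the Sall1 paralogs Sall2 and Sall3, at -2.17 ± 0.20 (SE, adjusted p = 1.47e-07) and -1.83 ± 0.23 (SE, adjusted p = 4.49e-06). Sall1 itself was not called in that comparison. Osr1, a marker of the earliest kidney field, was lower at -1.55 ± 0.18 (SE, adjusted p = 3.07e-06), Meis1 at -1.55 ± 0.35 (SE, adjusted p = 0.00121), Lmx1b at -1.25 ± 0.31 (SE, adjusted p = 0.00289) and Hnf4g, the paralog of Hnf4a, at -1.21 ± 0.18 (SE, adjusted p = 2.47e-05). Of the 4 IRI arrays, Meis1 was well above background on 2, Lmx1b on 1 and Hnf4g on 3, so the sizes of these falls are uncertain. Sox12, which with Sox4 belongs to the SoxC factors, was well above background on 0 of 4 IRI arrays and at least 2.13-fold lower than in Control. The genes that rose were the bile acid receptor Nr1h4, at 0.84 ± 0.19 (SE, adjusted p = 0.00114), Foxc1, at 0.77 ± 0.16 (SE, adjusted p = 8.59e-04), and the Notch target Hes1, at 0.70 ± 0.21 (SE, adjusted p = 0.0112). With normexp background correction the list had 3 higher and 5 lower, with a median of -0.14 against 0.022 over all genes.

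**Figure D5:**
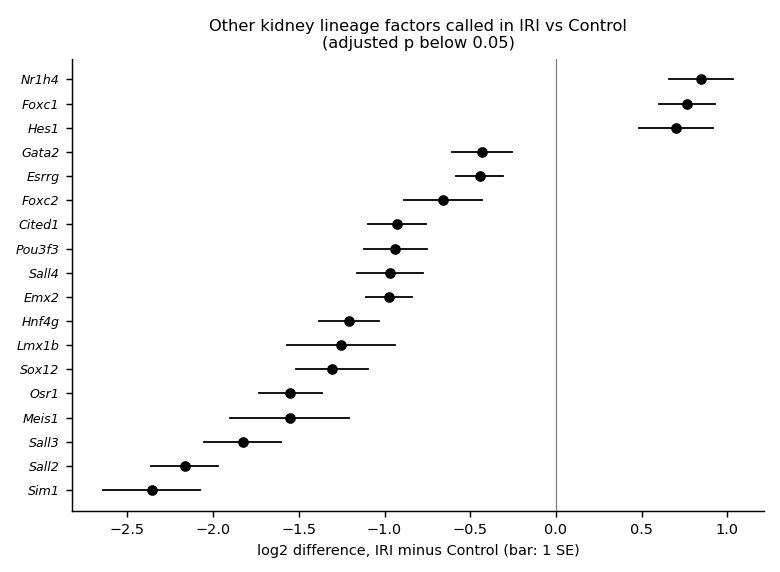
Log2 difference between IRI and Control (horizontal axis, bar of 1 SE) of the 18 other kidney lineage factors called at an adjusted p below 0.05 among 30 tested. Of these, 15 lie to the left as decreases, Sim1 furthest at -2.36, and 3 lie to the right as increases.

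Single genes of the list were higher in the pretreated injured groups than in IRI. Sim1 was higher in IPC+IRI than in IRI by 2.26 ± 0.28 (SE, adjusted p = 1.45e-05) and in IRI+Hemin by 1.15 ± 0.28 (SE, adjusted p = 0.00332), and in Hemin it was above Control by 1.03 ± 0.28 (SE, adjusted p = 0.00908). Elf5, a factor of collecting duct principal cells, was higher in the same 3 comparisons, by 1.45 ± 0.55 (SE, adjusted p = 0.0395), 1.65 ± 0.55 (SE, adjusted p = 0.0208) and 2.01 ± 0.55 (SE, adjusted p = 0.00881). As a list they did not exceed the genes at large, with 7 of 31 higher and 5 lower in IPC+IRI vs IRI, beside 26.3% and 17.9% of all genes, and 6 of 32 higher and 3 lower in IRI+Hemin vs IRI, beside 26.3% and 18.1%. In Hemin vs Control 6 of 32 were higher and 4 lower, beside 18.5% and 17.6%. In IPC+IRI vs Control 2 were higher and 18 lower of 31 tested, beside 23.3% and 32.7%. Elf5 was again among the higher ones, by 1.40 ± 0.55 (SE, adjusted p = 0.0381), and the falls of at least 2-fold included those of Sox10, a neural crest factor, at -2.03 (adjusted p = 0.00157), and the podocyte and stromal factor Tcf21 at -1.70 (adjusted p = 0.00164). Sall2, Sall4, Osr1, Hnf4g, Pou3f3, Sall3 and Foxc2 also fell there at least 2-fold, with log2 differences from -1.51 in Sall2 to -1.16 in Foxc2.

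In the comparisons with Hemin mice, the list had 2 of 32 higher and 11 lower in IRI+Hemin, beside 16.5% and 27.9% of all genes, and 0 higher and 14 lower of 32 in IPC+IRI, beside 13.2% and 22.8%. Sim1 was lower at -2.24 ± 0.28 (SE, adjusted p = 1.03e-05) in IRI+Hemin and at -1.13 ± 0.28 (SE, adjusted p = 0.00494) in IPC+IRI, and Sall2 at -1.81 ± 0.20 (SE, adjusted p = 2.28e-06) and -1.46 ± 0.20 (SE, adjusted p = 2.70e-05). Other falls of at least 2-fold included those of Sall3 and Pou3f3 in IRI+Hemin and of Sall3, Foxc2 and Tcf21 in IPC+IRI, while Sox8 was called lower in IPC+IRI at a signal too dim for a fold. The interaction of Hemin and IRI called 1 gene of the list, Sox12, whose signal was well above background on 0 of 4 IRI arrays, so no size is given.

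Of the nephron induction signals that act on these factors, 4 of 9 tested were lower in IRI than in Control and none higher, beside 33.9% of all genes called lower, which 4 of 9 does not far exceed. The largest falls were those of the ligands Gdnf, Wnt11 and Fgf8. Wnt11 was lower at -1.23 ± 0.25 (SE, adjusted p = 5.06e-04) and Fgf8 at -1.14 ± 0.20 (SE, adjusted p = 1.45e-04), and Gdnf, well above background on 0 of 4 IRI arrays, was at least 1.67-fold lower. Other cell types were checked in IRI vs Control, with 0 of 6 loop and distal tubule genes called at an adjusted p below 0.05 by limma. Of 4 podocyte genes 2 were lower, with Synpo at -0.54 ± 0.18 (SE, adjusted p = 0.0209). Of 5 leukocyte genes tested 2 were lower and none higher. Cd3g, among the lower, was well above background on 0 of 4 IRI arrays. Itgam was too dim to be tested in this comparison. Of 4 endothelial genes Cdh5 (VE-cadherin) was higher, by 1.39 ± 0.27 (SE, adjusted p = 4.09e-04), and Kdr lower, at -0.44 ± 0.17 (SE, adjusted p = 0.0392), and of 4 fibroblast genes Col1a1 was lower, at -1.27 ± 0.38 (SE, adjusted p = 0.0096). The part of these cell types in the values of the factors was not tested.

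For each factor called in IRI vs Control, the 3 genes with the most similar pattern over the 20 arrays were named, with Pearson's r as a description over arrays that fall into 5 groups. Candidates were 16262 genes well above background on at least 16 arrays. Sox9 ran closest to LOC676546 (r = 0.988), Rela (r = 0.983) and Ell (r = 0.981). Pax8 ran closest to Atp6v0a1 (r = 0.943), TC1765066 (r = 0.938) and Ptger4 (r = 0.936), Lhx1 to Mtap9 (r = 0.954), B3galnt2 (r = 0.917) and BB505010 (r = 0.915), and Pax2 to Cldn9 (r = 0.936), Commd9 (r = 0.903) and AK015962 (r = 0.903). The arrays share their groups and slides, so r over them carries the differences between groups.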

How the data were processed

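The authors scanned 20 one-colour Agilent 4x44K arrays and deposited Feature Extraction (9.5.3.1) files, from which the processed signal intensity was used. They also deposited a log2 matrix, which held the log2 of the same signal with 81.9% of values present. Control spots and outlier spots (53 to 165 per array) were left out, and spots of a probe, then probes of a gene, were averaged on the linear scale. Log2 expression was centred on each array's 75th percentile. Group means were fitted over 20 arrays with limma 3.58.1 in R 4.3.3, which left 15 residual degrees of freedom, with Benjamini-Hochberg adjustment over all genes tested, and the test was checked on simulated data. A gene was tested where at least 3 of 4 arrays of either group were well above background. The number of arrays limits the precision. Replicate numbers did not pair the samples. IRI, IPC+IRI and Hemin were compared with Control, both pretreated injured groups with IRI and with Hemin, and the interaction of Hemin and IRI is the IRI+Hemin minus Hemin difference less the IRI minus Control difference. Named were all 10 factors, up to 3 called genes per list and direction in IRI vs Control, other lineage factors called with a 2-fold difference, and the 3 nearest patterns, and a few genes that this rule names are not reported here. The factors and lists were chosen with earlier results of these data known. Alternatives covered background correction, scaling, probe summary, filter, test, the replicate block and arrays left out.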

Additional observations from a re-analysis of the deposited data

Results flagged for a closer look

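In groups of 4 arrays, 5 of 50 gene and group pairs had a single array further from the others than Dixon's 95% critical value allows, and chance gives such an array in about 1 in 20 groups. The log2 expression of Irx3 in IRI+Hemin replicate 4 was -5.49, which changed the calls of that gene. Gata3 in IRI+Hemin replicate 1 was -0.12, the low value of its group. Sall1 in IRI+Hemin replicate 2 was -1.65, above 3 arrays within 0.1 of each other. In the tight Hemin group, Hnf4a in replicate 2 was 2.59 and Pax8 in replicate 1 was -1.88, both lower than their group by less than 0.1 log2 units.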

How the results depend on the processing

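Of 1006 values of single factors under another setting, 877 kept their direction and side of the threshold, and with an array left out 689 of 770 did. A change of sign is called a reversal where the value was called in either fit, which held for 9 and 0 values. Another 45 and 40 values changed sign without being called in either fit. The rise of Sox9 in the 4 comparisons of injured with uninjured groups and of Sox4 in IPC+IRI held with every array left out. Pax2 reversed with normexp (0.15 in IRI vs Control and -0.46 in IRI+Hemin vs IRI). Pax8 reversed with the mean of log2 values (0.14 in either pretreated injured group against IRI). It also reversed with its dim probe alone, at 1.32 in IPC+IRI and 1.14 in IRI+Hemin against IRI as fitted. With the IRI arrays held at no less than their lowest signal well above background, these were only 1.23-fold and 1.09-fold. Hnf4a reversed with 1 probe alone (0.48 in IRI+Hemin vs IRI and 0.40 in IRI+Hemin vs Hemin), and so did Lhx1 (-0.61 in IRI+Hemin vs IRI). Single probes were tried after the data were seen. The cause was not tested, except that the single probes differ by construction.

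The number of factors called moved by more than 1.5 times, or from or to 0, in the following cases. Smaller moves, among them those from 4 to 3 in IRI vs Control with normexp, quantile normalization or the mean of log2 values and from 3 to 2 in IPC+IRI vs IRI with the mean of log2 values, are left out. In IRI vs Control (4) it was 2 with the strict filter on dim genes, which tests 8 of the 10. In IPC+IRI vs Control (5) it was 3 with normexp, 3 without scaling and 8 with SAM. In IRI+Hemin vs IRI (5) it was 2 with normexp and 2 with the mean of log2 values. In Hemin vs Control (1) it was 3 without scaling, 0 with the mean of log2 values, 2 with the compared arrays alone and 5 with SAM. In IRI+Hemin vs Hemin (5) it was 3 without scaling, and in the interaction (0) it was 1 with the percentile over probes well above background and 1 with the brightest probe. On leaving out single arrays, the number spanned 4 to 5 in IRI vs Control, 3 to 6 in IPC+IRI vs Control, 2 to 4 in IPC+IRI vs IRI, 3 to 6 in IRI+Hemin vs IRI, 0 to 2 in Hemin vs Control, 4 to 5 in IRI+Hemin vs Hemin, 4 to 5 in IPC+IRI vs Hemin and 0 to 1 in the interaction.

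With the replicate number as a block, 4 factors were called in IRI vs Control, 5 in IPC+IRI vs Control, 3 in IPC+IRI vs IRI, 5 in IRI+Hemin vs IRI, 1 in Hemin vs Control, 4 in IRI+Hemin vs Hemin, 4 in IPC+IRI vs Hemin and 0 in the interaction, and the pairs correlated at -0.38 to 0.15. The block ended 1 call, Hnf4a in IRI+Hemin vs Hemin (adjusted p = 0.0516). Scaling moved the genes at large. Their median in Hemin vs Control was 0.62 without scaling against 0.057, and the higher share of all calls was then 94.7% against 51.3%. In IRI vs Control that share was 33.5%, 56.2% with normexp and 26.4% with the percentile over probes well above background, and in IPC+IRI vs IRI 59.5%, 48.9% with normexp and 90.7% without scaling. In IRI+Hemin vs IRI it was 59.2%, 44.6% with normexp and 91.4% without scaling, and in IPC+IRI vs Control 41.5% and 75.2% without scaling. In IRI+Hemin vs Hemin it was 37.1% and 47.2% with normexp, in IPC+IRI vs Hemin 36.6%, 49.2% with normexp and 25.2% without scaling, and in Hemin vs Control 35.1% with the percentile over probes well above background. In the interaction it was 74.9% and 64.6% with quantile normalization. A slide as a random block could not be fitted, since each slide held 1 group. Pax2, the dim Pax8 probe and Sox9 in uninjured kidneys lay near background, where changes are poorly measured.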
